A study of Mus musculus with 22 samples.

Results

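The insulin-like growth factor genes described here are 9 of the 24537 genes in a table of astrocyte RNA from mouse visual cortex. They comprise the ligands Igf1 and Igf2, the receptors Igf1r and Igf2r, and the binding proteins Igfbp2, Igfbp3, Igfbp4, Igfbp5 and Igfbp7. All 9 were found in the table by name. They were chosen by name as a family, and selected on the measured FPKM difference of Igfbp2 between the hemispheres under monocular deprivation, so that difference is given as a description without a test.

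RNA came from C57BL/6J mice that carried the 73.12 GFAP-cre driver and an HA tag on the ribosomal protein RPL22, so ribosomes were tagged in cells that had expressed the driver. Tagged ribosomes were pulled down from PFA-fixed visual cortex. There were 3 pulldown libraries each from the contralateral and the ipsilateral hemisphere after 2 days of monocular deprivation at postnatal day 28, named by their side relative to the deprived eye. There were also 4 from mice reared in the dark from birth to day 45, 3 from mice kept in the dark for 10 days at day 120, and 3 from normally reared mice at day 45 on a daily light cycle. The normally reared group was the only one with neither deprivation nor darkness, and its age matched the dark-reared group only. Every group also had 1 input library, made from the tissue without pulldown. The driver acts in any cell that expresses it, and no label says whether the libraries came from single animals or pools, so the spread between replicates may be partly technical.

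Values are FPKM, fragments scaled to transcript length and to library depth, which can be compared between genes. Errors of FPKM means are SD and errors of log2 fold changes are SE. For 20 of the 21 libraries a depth could be estimated, at 21.1 to 51.2 M reads, and 14092 to 16702 genes were above 0 per library, with contralateral replicate 2 the lowest. All 12 astrocyte markers listed were higher in the pulldown than in the input, and all 13 neuronal and 12 microglial markers were lower. Of the markers of oligodendrocytes and their precursors, 5 of 8 and 5 of 6 were also higher in the pulldown. The summed level of the neuronal markers was 269.0 to 1205 FPKM over the pulldowns and 3440 to 4036 FPKM over the inputs.

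Insulin-like growth factors are secreted proteins that act through the receptor tyrosine kinase encoded by Igf1r, which signals through insulin receptor substrates, PI3 kinase and Akt. Igf2r encodes a receptor that takes up IGF2 and carries it to lysosomes. Most of the ligand outside cells is held by binding proteins, which can limit its access to the receptor or carry it, and IGFBP7 binds IGFs with low affinity. In the rodent visual cortex, exogenous IGF1 is known to modify the response to monocular deprivation.

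Igfbp2, whose product binds both ligands, and Igfbp5 are neighbours on mouse chromosome 1. In GRCm38, the assembly also called mm10, Igfbp2 spans bases 72824503 to 72852474 on the plus strand and Igfbp5 spans 72857932 to 72874884 on the minus strand. Their ends face each other across 5457 bases. Igfbp3 (bases 7206086 to 7213923) and Igfbp4 (99041244 to 99054392) lie on chromosome 11, Igfbp7 on chromosome 5, Igf1 on chromosome 10, Igf2 and Igf1r on chromosome 7 and Igf2r on chromosome 17. RefSeq gives 2 transcription starts for Igfbp2, and the transcript on which the deposited Igfbp2 value rests is paired by GENCODE with one that starts at base 72825322, which lies nearer the second of them. The windows from 250 bases before to 50 bases after each start (RefSeq, GRCm38.p6) are shown because the 2 neighbours, with the highest levels of the family, differed in how they varied between libraries. Letters in capitals mark GGGCGG, the GC box, and TGACTCA, the AP-1 motif, on either strand. The third motif searched, TATAAA, was in none of the windows.
Igfbp2 first start, chr1:72824230-72824529, plus strand: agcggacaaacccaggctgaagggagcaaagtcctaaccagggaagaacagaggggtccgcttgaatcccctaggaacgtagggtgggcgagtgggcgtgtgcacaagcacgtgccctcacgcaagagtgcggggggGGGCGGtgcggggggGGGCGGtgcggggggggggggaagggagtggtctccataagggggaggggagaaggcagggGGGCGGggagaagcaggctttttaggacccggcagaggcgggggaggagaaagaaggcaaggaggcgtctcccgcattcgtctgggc
Igfbp2 second start, chr1:72825137-72825436, plus strand: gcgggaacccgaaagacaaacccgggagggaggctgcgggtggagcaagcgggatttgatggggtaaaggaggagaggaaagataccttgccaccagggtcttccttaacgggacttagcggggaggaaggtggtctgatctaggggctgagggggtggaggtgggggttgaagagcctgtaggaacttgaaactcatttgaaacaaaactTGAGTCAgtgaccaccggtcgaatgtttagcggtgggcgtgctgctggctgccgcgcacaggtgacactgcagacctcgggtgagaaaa
Igfbp5 start, chr1:72874816-72875115, minus strand: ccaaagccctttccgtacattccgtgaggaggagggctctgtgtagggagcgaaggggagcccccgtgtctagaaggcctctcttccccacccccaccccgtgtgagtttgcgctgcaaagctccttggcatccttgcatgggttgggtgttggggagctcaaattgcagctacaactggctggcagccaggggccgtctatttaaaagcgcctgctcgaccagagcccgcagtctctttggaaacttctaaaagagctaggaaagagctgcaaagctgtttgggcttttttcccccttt
The first Igfbp2 window held 3 GC boxes and was 67.0% G and C. The second held 1 AP-1 motif, read on the minus strand, beginning 39 bases before the RefSeq start, and was 57.3% G and C. The Igfbp5 window held none of the motifs and was 56.3% G and C. Over 32851 mouse promoter windows of the same kind, 35.7% held GGGCGG, 5.2% held TGACTCA and 13.6% held TATAAA, and the median content of G and C was 52.7%. These matches describe letters only and say nothing on binding.

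Igfbp2 and Igfbp5 were the members enriched in the astrocyte pulldown, and the ligands, Igf2r and the other binding proteins had higher values in the input, while the direction of Igf1r depended on the scaling. Igfbp2 averaged 232.5 ± 66.9 FPKM over the 16 pulldowns, against 34.5 ± 14.5 FPKM over the 5 inputs (SD). Each pulldown group was 4.75 to 9.57 times its own input. The log2 fold change was 2.73 ± 0.13 (SE, limma adjusted p = 2.2e-13), and no pulldown library overlapped the inputs. Igfbp5, a binding protein that also attaches to extracellular matrix, averaged 127.2 ± 42.5 FPKM in pulldowns and 41.8 ± 8.54 FPKM in inputs, a log2 fold change of 1.47 ± 0.26 (limma adjusted p = 3.11e-05). Both monocular libraries numbered 2, at 41.0 and 40.9 FPKM, lay within the range of the inputs, which was 29.8 to 53.3 FPKM.

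Igfbp4 and Igfbp7 were lower in the pulldown, and Igfbp3 had lower values there. Igfbp4, which inhibits IGF action until it is cleaved, had 7.2 to 21.1 FPKM over the pulldowns with a median of 9.50, against 33.0 to 66.4 FPKM over the inputs. Its log2 fold change was -2.04 ± 0.19 (limma adjusted p = 4.43e-09). Igfbp7, known as a product of vascular cells in brain, had 2.3 to 5.3 FPKM in pulldowns and 7.0 to 16.3 FPKM in inputs. Its log2 fold change was -1.63 ± 0.14 (limma adjusted p = 2.55e-09). For Igfbp3, the main carrier of circulating IGFs, the pulldowns held 0.4 to 1.5 FPKM and the inputs 2.9 to 3.7 FPKM. Igfbp3 passed the filter only through its inputs, so no test of it is given. For none of these 3 genes did a pulldown reach the lowest input.

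Both ligands were low in the pulldowns, and Igf1 was at or next to the smallest value the table can show. Igf1 was listed at 0 in 10 pulldown libraries and at 0.1 FPKM in the other 6, against 0.9 to 1.3 FPKM in the inputs. It was below the filter of a mean above 1 FPKM. Without that filter its log2 fold change was -0.95, on a log2(FPKM + 1) scale that understates ratios at such levels. The spread of its pulldown values was set by rounding, so no test of it is given. Igf2, a ligand known from the meninges, choroid plexus and vessels, had 0.0 to 2.0 FPKM in pulldowns with a median of 0.850, against 9.6 to 28.0 FPKM in inputs. Like Igfbp3, Igf2 passed the filter only through its inputs, so its log2 fold change of -3.18 is a description without a test. The summed level of the 12 leptomeningeal markers was 2.1 to 6.6 FPKM over pulldowns and 22.3 to 44.6 FPKM over inputs, and that of the 8 choroid plexus markers was 0.3 to 2.4 and 0.6 to 1.8 FPKM, with Otx2 and Clic6 at 0 in all libraries of the 5 pulldown groups. The part of meningeal tissue in the input levels was not tested.

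Both receptors were low on both sides of the pulldown. Igf1r averaged 3.78 ± 1.29 FPKM in pulldowns and 5.00 ± 1.37 FPKM in inputs, with a log2 fold change of -0.36 ± 0.15 (limma adjusted p = 0.0313). This call was lost under median-ratio scaling (-0.07) and turned to 0.06 under quantile normalization, so its direction depends on the scaling. Leaving out the contralateral, ipsilateral, dark-exposed or normally reared input, or the term for the group, also ended the call, with values of -0.26 to -0.36. Igf2r averaged 2.10 ± 0.77 FPKM in pulldowns and 3.64 ± 0.66 FPKM in inputs, with a log2 fold change of -0.61 ± 0.16 (limma adjusted p = 0.00207), and was not called under quantile normalization (-0.18, limma adjusted p = 0.173). Igf1r was the member with the smallest difference between the fractions.

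Of the 8 members above the filter, 2 were called higher and 6 lower, and 2 of those 6 (Igf2 and Igfbp3) had to differ to pass the filter. Among all 12070 genes tested, 26.4% were higher and 50.7% lower, with a median of -0.31, so a call was the rule and not the exception. With the median brought to 0.01 by quantile normalization, 4646 genes were higher and 4638 lower. The directions of Igfbp2, Igfbp5, Igfbp4, Igfbp7, Igfbp3 and Igf2 held in each alternative that could be computed for them, 29 or 30 per gene. The strand used in counting is not given in the sources used here, so reads of Igf1, Igf2, Igf2r and Igfbp7 cannot be told apart from those of annotated genes on the other strand (Igf1os, Igf2os, Airn, and Polr2b with Gm34648).

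**Figure D1:**
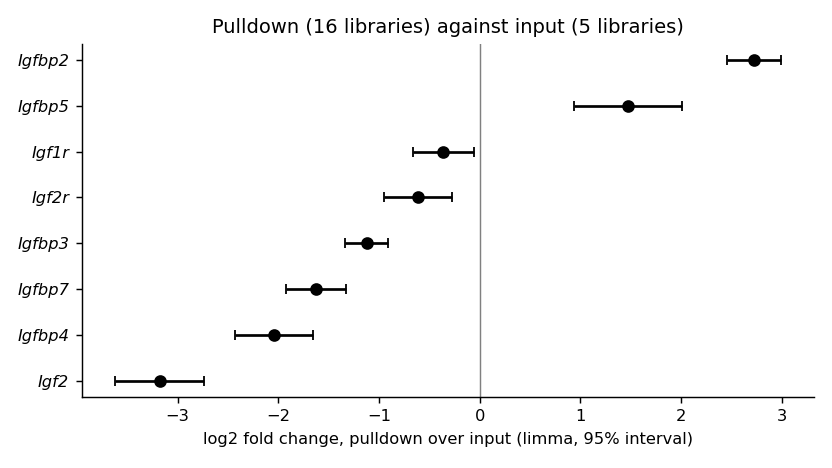
Log2 fold change of 8 insulin-like growth factor genes in 16 pulldown libraries over 5 inputs, with points for the limma estimate on log2(FPKM + 1) and bars for the 95% interval. Igfbp2 at 2.73 and Igfbp5 at 1.47 lie right of 0, and Igf2 at -3.18 lies farthest left. Igf2 and Igfbp3 passed the filter only through their inputs, so their intervals are not read as a test.

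The rest of the pathway was read from 59 further genes, of which 46 were tested. In the pulldown 11 were called higher and 28 lower, with a median of -0.52, where limma called 26.4% of all genes as higher and 50.7% as lower. Htra1, a secreted protease able to cleave IGF binding proteins, averaged 795.2 ± 136.7 FPKM in pulldowns and 75.3 ± 21.1 FPKM in inputs, and was thus more abundant per length than any member. Its log2 fold change was 3.39 ± 0.12 (limma adjusted p = 5.58e-15). Akt2, a kinase downstream of PI3 kinase, was higher at 2.01 ± 0.10 (limma adjusted p = 4.1e-13). Grb10, an inhibitory adaptor, was lower at -1.81 ± 0.14 (limma adjusted p = 4e-10). Socs2, an inhibitor of growth hormone signalling, averaged 0.525 FPKM in pulldowns and 4.50 FPKM in inputs and passed the filter through its inputs only, so it is given without a test. Inpp5d, a phosphatase of microglia and blood cells, was lower at -1.05 ± 0.09 (limma adjusted p = 2.42e-09). By list, 3 of 17 PI3 kinase, Akt and Foxo genes were higher and 12 lower, against 1 higher and 7 lower of 10 mTOR genes and 1 higher and 7 lower of 9 tested adaptors. Since most genes of the table were called, these counts are read as no more than a description. The 3 mRNA binders of Igf2 were all below the filter.

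Across the pulldown groups, Igfbp2 had its highest mean in ipsilateral and its lowest mean in dark-exposed libraries. It averaged 174.2 ± 43.7 FPKM in contralateral cortex, 308.7 ± 15.4 in ipsilateral cortex, 257.6 ± 30.4 in dark-reared mice, 146.8 ± 5.12 in dark-exposed mice and 266.9 ± 46.5 in normally reared mice (SD, n = 3, 3, 4, 3 and 3). In that order of means, from ipsilateral through normally reared, dark-reared and contralateral to dark-exposed, the libraries of neighbouring groups overlapped except between dark-reared and contralateral. For each of the other 8 members, all neighbouring groups overlapped. Igfbp5 group means ran from 95.3 FPKM in ipsilateral cortex to 154.0 FPKM in dark-reared mice. The Igf1r means ran from 2.43 FPKM in ipsilateral cortex to 5.03 FPKM in normally reared mice.

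**Figure D2:**
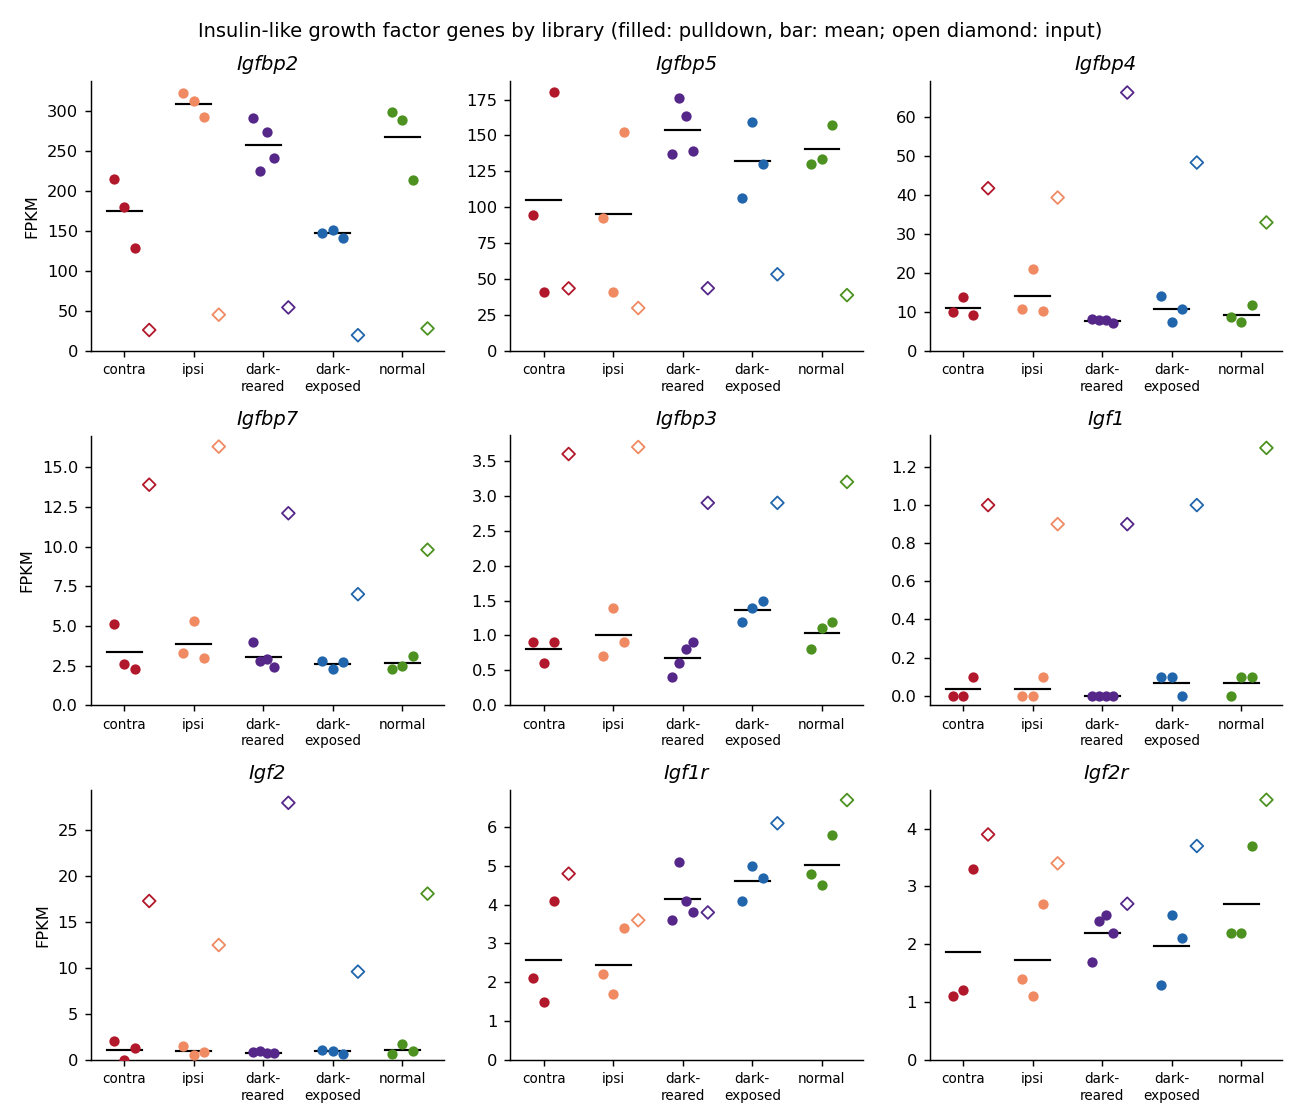
FPKM of the 9 insulin-like growth factor genes in each library, with filled points for pulldowns, a bar for the group mean and an open diamond for the group's input. Igfbp2 pulldowns of contralateral cortex (128.0 to 214.8 FPKM) and dark-exposed mice (141.3 to 151.4 FPKM) lie below those of ipsilateral cortex (291.9 to 322.0 FPKM), and the diamonds of Igfbp4, Igfbp7, Igfbp3, Igf1 and Igf2 lie above every filled point.

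Igfbp2 was lower in the cortex contralateral to the deprived eye than in the ipsilateral cortex in every numbered pair. It had 214.8, 179.8 and 128.0 FPKM in contralateral replicates 1, 2 and 3, against 322.0, 312.2 and 291.9 FPKM in ipsilateral replicates 1, 2 and 3. The contralateral libraries were spread more widely, and the highest of them stayed below the lowest ipsilateral library. The ratios of contralateral to ipsilateral were 0.667, 0.576 and 0.438 in pairs 1, 2 and 3. The log2 fold change was -0.85 ± 0.19 (SE). With the replicate number as a block, in a fit of the monocular libraries alone, the error was 0.11. Libraries of one number deviated together from their group means (r = 0.802, 0.790 and 0.903 across genes). The part of this pairing in the smaller error was not tested. Over 16 alternatives the log2 fold change was -1.02 to -0.62, without contralateral replicate 3 it was -0.65, and without both libraries numbered 2 it was -0.88. The input libraries of the hemispheres had 26.0 FPKM contralaterally and 45.1 FPKM ipsilaterally, a ratio of 0.576 with 1 library on each side.

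No other member separated the hemispheres. Igfbp5 had 94.4, 41.0 and 180.4 FPKM contralaterally and 92.3, 40.9 and 152.6 FPKM ipsilaterally, so its values spread widely between numbers and differed by a ratio of at most 1.18 within a pair. With the block, its log2 difference was 0.09 ± 0.08. Igfbp4 had 9.9, 13.9 and 9.1 FPKM contralaterally and 10.8, 21.1 and 10.2 FPKM ipsilaterally, a log2 difference of -0.28 ± 0.12 with the block. Igf1r differed by 0.02 ± 0.13, Igf2r by 0.03 ± 0.14 and Igfbp7 by -0.19 ± 0.23 on the same scale. Igfbp3 had 0.9, 0.6 and 0.9 FPKM contralaterally and 0.7, 1.4 and 0.9 FPKM ipsilaterally. Igf2 had 2.0, 0.0 and 1.3 FPKM contralaterally and 1.5, 0.5 and 0.8 FPKM ipsilaterally, and Igf1 was listed at 0.0, 0.0 and 0.1 FPKM on both sides. All 3 overlapped between the hemispheres. For Igfbp7, contralateral replicate 1 at 5.1 FPKM and ipsilateral replicate 2 at 5.3 FPKM stood above the rest. The summed level of the 8 endothelial markers was 32.3 FPKM in contralateral replicate 1, but only 3.2 FPKM in ipsilateral replicate 2. It was 2.2 to 11.9 FPKM in the other pulldowns, and its part in the Igfbp7 values was not tested.

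**Figure D3:**
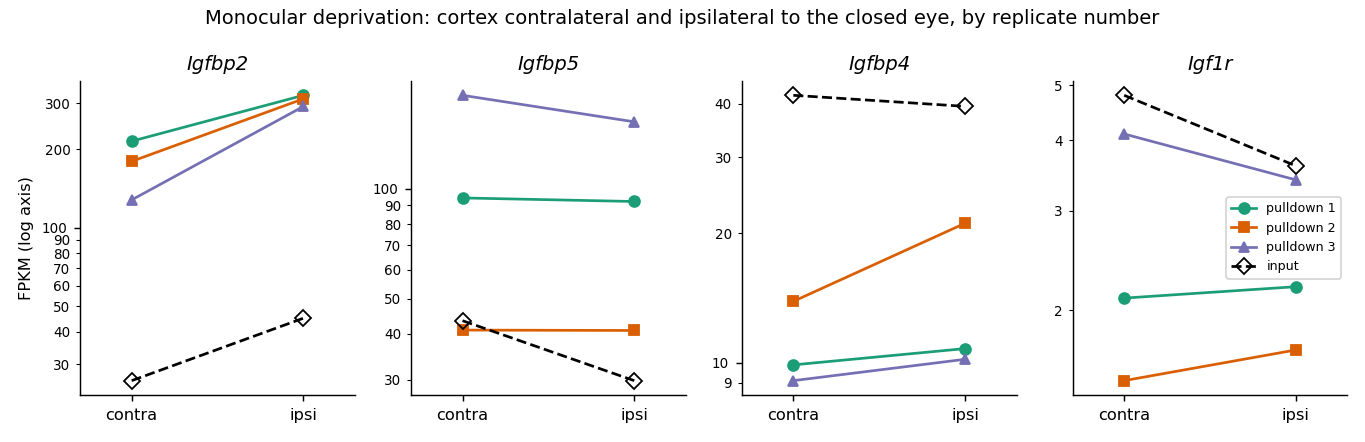
FPKM on a log axis in contralateral and ipsilateral cortex for 4 genes, with a line for each replicate number and a dashed line for the pair of inputs. All Igfbp2 lines slope up toward the ipsilateral side, while Igfbp5 and Igf1r are set apart by replicate number, with number 2 lowest and number 3 highest.

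Of the 6 members above the filter, 2 (Igfbp2 and Igfbp4) were lower in all 3 pairs and 1 (Igfbp5) was higher in all 3. Among all 11562 genes tested, 20.8% were lower and 4.80% higher in all 3 pairs. Only Igfbp2 had hemispheres that did not overlap, against 1.37% of all genes that were lower and 0.199% that were higher without overlap. Without the replicate block, limma called 0% of all genes at an adjusted p under 0.05 in this contrast, and 84 genes had an unadjusted p under 0.05. Since Igfbp2 was chosen with this contrast known, nothing is read from these shares. In the inputs 1 member, Igfbp2, was at least 1.5-fold lower contralaterally, against 1.35% of 12525 genes, and none was that much higher, against 1.55%.

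No tested gene of the pathway or marker lists was called between the hemispheres, though the summed precursor markers separated them. Of 45 pathway genes tested none was called, 16 were positive and 28 negative, and the median was -0.05, against -0.06 for all genes. These values come from the fit without the replicate block. It leaves out the pairing of the libraries, so a missing call there says little. The smallest p in the pathway belonged to Rheb, the activator of mTOR, at -0.26 ± 0.14, and to Stat5a, a transcription factor downstream of growth hormone, at -0.27 ± 0.18 (limma adjusted p = 1 for both). Astrocyte markers were negative for 9 of 12, with a median of -0.09 and summed levels of 12397 to 16699 FPKM contralaterally and 12637 to 17370 FPKM ipsilaterally. Markers of oligodendrocyte precursors were negative for 5 of 6. Their summed levels were 216.4 to 232.9 FPKM contralaterally and 264.7 to 275.6 FPKM ipsilaterally, without overlap. Oligodendrocyte markers were negative for 8 of 8, with a median of -0.09. Their sums overlapped, at 1941 to 3490 FPKM contralaterally and 2054 to 3368 FPKM ipsilaterally. No marker of these lists was called or at 0 in all libraries of a hemisphere, and their part in the Igfbp2 difference was not tested. In bulk pulldowns, fewer cells that carry a transcript and less of it per cell cannot be told apart.

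With dark rearing, no tested member was called, and for every member the dark-reared and normally reared libraries overlapped. Igfbp2 had 291.5, 224.2, 273.4 and 241.3 FPKM in dark-reared mice, against 298.7, 288.4 and 213.5 FPKM in normally reared mice of the same age. The groups overlapped. Its log2 fold change was -0.04 ± 0.17, with a 95% interval of -0.41 to 0.33 (limma adjusted p = 0.971). The interval leaves room for changes of moderate size in either direction. Igfbp5 differed by 0.13 ± 0.42, Igfbp4 by -0.21 ± 0.25, Igfbp7 by 0.14 ± 0.22, Igf1r by -0.23 ± 0.22 and Igf2r by -0.19 ± 0.26 (limma adjusted p = 0.904 or more for all 6). None of the 6 tested members was called, where limma called 0% of all genes as higher and 0.00865% as lower, a single gene (Fos), and 640 genes had an unadjusted p under 0.05. None of the 6 separated the groups without overlap either, where 9.06% of all genes were lower and 2.71% higher without overlap.

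The members below the filter in the pulldown fit were Igfbp3, Igf1 and Igf2. Fitted without a filter, Igfbp3 differed by -0.28 ± 0.14 (limma adjusted p = 0.917) and Igf2 by -0.21 ± 0.30 (limma adjusted p = 0.957) between dark-reared and normally reared mice. Igf1 was listed at 0 in all 4 dark-reared libraries. In normally reared libraries it was listed at 0.0, 0.1 and 0.1 FPKM, a difference of 1 rounding step. Of the 45 pathway genes none was called. Irs2, an insulin receptor substrate, differed by -0.67 ± 0.35 (limma adjusted p = 0.867). Neuronal markers were negative for 9 of 12 tested, with none called and a median of -0.56. Their summed levels were 269.0 to 428.1 FPKM in dark-reared and 433.8 to 1205 FPKM in normally reared pulldowns, without overlap. The part of this shift in the values of the members was not tested.

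Between the inputs of these groups, with 1 library on each side, 5 members differed by 1.5-fold or more. Igfbp2 was 54.2 FPKM in the dark-reared input and 27.9 FPKM in the normally reared input, a ratio of 1.94, and Igfbp4 was 66.4 and 33.0 FPKM, a ratio of 2.01. Igf2 had a ratio of 1.55, Igf1r of 0.567 and Igf2r of 0.600. Thus 3 members were at least 1.5-fold higher and 2 at least 1.5-fold lower, but 20.4% of all genes were that much higher and 20.8% that much lower between these libraries. For Igfbp2 the input level also set the ratio of pulldown to input, which was 4.75 in dark-reared and 9.57 in normally reared mice.

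Igfbp2 had lower values in dark-exposed than in normally reared pulldowns, without passing the test over all genes. Dark-exposed mice had 147.8, 151.4 and 141.3 FPKM, against 298.7, 288.4 and 213.5 FPKM in normally reared mice. The dark-exposed libraries lay close together and below all normally reared ones. The log2 fold change was -0.84 ± 0.19, with a 95% interval of -1.24 to -0.45, and it was not called (limma adjusted p = 0.173). With array weights, which give libraries that vary more less weight, it was -0.95 ± 0.12 and was called (limma adjusted p = 0.000479). Over 15 alternatives it was -0.99 to -0.75, with limma adjusted p of 0.000479 to 0.963. Igfbp2 was the only one of the 6 tested members below normal rearing without overlap, where 4.60% of all genes were, and none was above it, where 6.31% were. The dark-exposed mice were 120 days old and the normally reared mice 45 days old, so age and darkness cannot be told apart.

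After dark exposure none of the other tested members was called, and the libraries of each of the other members overlapped those of normal rearing. Igfbp5 differed by -0.10 ± 0.45, Igfbp4 by 0.16 ± 0.27, Igfbp7 by -0.01 ± 0.23, Igf1r by -0.10 ± 0.24 and Igf2r by -0.32 ± 0.28 (limma adjusted p = 1 for each). Igfbp3 had 1.2, 1.4 and 1.5 FPKM in dark-exposed mice, against 0.8, 1.1 and 1.2 FPKM in normally reared mice, 0.22 ± 0.15 without a filter (limma adjusted p = 1). Igf2 had 1.1, 1.0 and 0.6 FPKM in dark-exposed mice, against 0.6, 1.7 and 1.0 FPKM in normally reared mice, and Igf1 was listed at 0.0 or 0.1 FPKM in both groups. None of the 6 tested members was called in either direction, and limma called 0.0778% of all genes as higher and 0.00865% as lower. In the inputs Igf2 was at 9.6 FPKM in dark-exposed and 18.1 FPKM in normally reared mice and was the only member at least 1.5-fold apart, where 4.31% of genes were that much lower and 4.22% higher. The Igfbp2 input ratio was 0.699.

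The makeup of the dark-exposed pulldowns differed in other ways. Of 12 microglial markers 7 were called higher, with summed levels of 92.4 to 159.7 FPKM in dark-exposed and 23.4 to 39.2 FPKM in normally reared mice. Of 12 astrocyte markers 11 were negative, none was called and the median was -0.22, with summed levels of 12849 to 15246 FPKM in dark-exposed and 14431 to 16406 FPKM in normally reared mice. Neuronal markers were positive for 12 of 12 tested, with none called and a median of 0.30, and their summed levels were 728.7 to 1177 FPKM in dark-exposed and 433.8 to 1205 FPKM in normally reared mice. Of 6 blood markers 2 were tested and both were positive, with summed levels of 0.9 to 18.7 FPKM in dark-exposed and 0.5 to 1.4 FPKM in normally reared mice. No gene of these lists was at 0 in all pulldowns of either group, and the part of these shifts in the Igfbp2 difference was not tested. In the pathway none of 45 genes was called. Akt1 at 0.34 ± 0.13 (limma adjusted p = 0.915) and Inpp5d at 0.29 ± 0.14 (limma adjusted p = 1) had the smallest p.

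**Figure D4:**
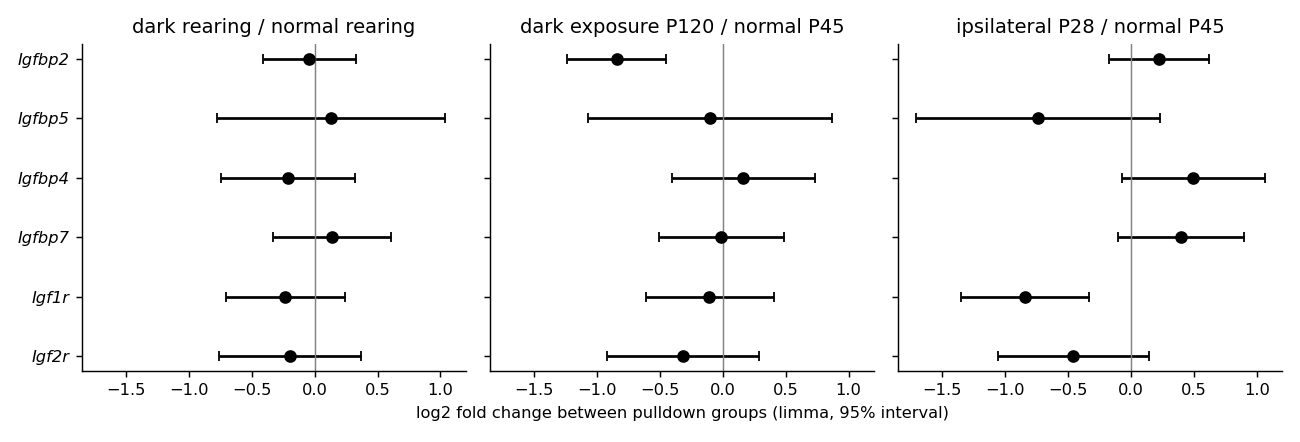
Log2 fold changes of the 6 members above the filter in dark-reared, dark-exposed and ipsilateral pulldowns, each over the same 3 normally reared pulldowns (limma on log2(FPKM + 1), 95% intervals). Igfbp2 lies at -0.04, -0.84 and 0.22 in the 3 panels, and Igf1r lies at -0.84 in the ipsilateral panel.

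The ipsilateral cortex at day 28 was also set against normal rearing at day 45, a comparison in which age and deprivation cannot be told apart. Igfbp2 had 322.0, 312.2 and 291.9 FPKM ipsilaterally, against 298.7, 288.4 and 213.5 FPKM in normally reared mice, and differed by 0.22 ± 0.19 (limma adjusted p = 0.572). The groups overlapped. Igf1r had 2.2, 1.7 and 3.4 FPKM ipsilaterally, against 4.8, 4.5 and 5.8 FPKM in normally reared mice. It was the only one of 6 tested members without overlap, where 6.73% of all genes were lower and 2.58% higher without overlap. Its log2 fold change was -0.84 ± 0.24, with a median of -0.16 over all genes, and was not called (limma adjusted p = 0.504). Limma called 0% of all genes here and 1108 had an unadjusted p under 0.05.

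The remaining members overlapped between ipsilateral and normally reared libraries. Igfbp5 differed by -0.74 ± 0.45, Igfbp4 by 0.50 ± 0.27, Igfbp7 by 0.40 ± 0.23 and Igf2r by -0.46 ± 0.28 (limma adjusted p = 0.507 to 0.524). Without a filter, Igfbp3 differed by -0.03 ± 0.15 (limma adjusted p = 0.984) and Igf2 by -0.12 ± 0.32 (limma adjusted p = 0.915). Igf1 was listed at 0.0 or 0.1 FPKM in both groups. Without both monocular libraries numbered 2, Igfbp5 differed by -0.23 and Igfbp4 by 0.18, while Igf1r differed by -0.68. Of 45 pathway genes none was called, 12 were positive and 33 negative, and the median was -0.28. Pik3r1, a regulatory subunit of PI3 kinase, at -1.04 ± 0.35 and Gsk3b, a kinase inhibited by Akt, at -0.79 ± 0.28 (limma adjusted p = 0.504 for both) had the smallest p. In the inputs, Igf1r was 3.6 FPKM ipsilaterally and 6.7 FPKM in normally reared mice, a ratio of 0.537, where 8.91% of genes were at least 1.5-fold lower. Igfbp2 and Igfbp7 had input ratios of 1.62 and 1.66, where 16.4% of genes were at least 1.5-fold higher. The dark-reared, dark-exposed and ipsilateral comparisons share their 3 normally reared libraries.

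Set side by side, the Igfbp2 difference was -0.85 between the hemispheres and -0.04 with dark rearing. The difference of these effects was -0.81 ± 0.25, or ± 0.21 with the replicate block. It is given without a test because the first of the effects was known when the gene was chosen. Without the block, limma called 0% of all genes for this difference, and 116 had an unadjusted p under 0.05.

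Among themselves, the members fell into different patterns over the 16 pulldowns, described here by Pearson's r on log2(FPKM + 1). The libraries share preparation and depth differences, and no test was made. Igfbp5 went with Igf1r (r = 0.865, Spearman's rho = 0.634) and Igf2r (r = 0.798, rho = 0.886) and against Igfbp4 (r = -0.784, rho = -0.606). Without the libraries numbered 2 of both hemispheres, which lie farthest from the Igfbp5 median, the values were 0.712, 0.874 and -0.467. Within the 6 monocular libraries r with Igf1r was 0.947, and within the other 10 it was 0.420, so this relation rests mainly on the monocular libraries. For Igf2r the values within these sets were 0.837 and 0.738. Igfbp5, Igf1r and Igf2r also have the longest transcripts of the members, at 6006, 11409 and 8887 bases. The part of transcript length in these relations was not tested. Igfbp2 had r = -0.153 with Igfbp5, its chromosomal neighbour.

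The genes most like Igfbp2 over the 16 libraries, among 7140 with a mean above 5 FPKM, were Fdps (r = 0.887), Mvd (0.866), Mars (0.815), Gpd1 (0.804), Lcat (0.777) and Slc9a3r1 (0.767). Fdps, which encodes farnesyl diphosphate synthase, had group means of 31.6 FPKM in contralateral, 42.3 in ipsilateral, 38.0 in dark-reared, 24.5 in dark-exposed and 36.6 in normally reared pulldowns. Mvd, which encodes mevalonate diphosphate decarboxylase, had means of 68.4, 85.7, 83.9, 53.5 and 83.7 FPKM in the same order of groups. Since these genes were picked for their likeness over the same libraries, their order of groups follows in part from that choice. Within the 6 monocular libraries Fdps had r = 0.867 and Mvd 0.885, and within the other 10 they had 0.911 and 0.909. For Lcat the values were 0.494 and 0.981.

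The lowest r belonged to Gtpbp2 (-0.791), Ifit3 (-0.783) and Ifit3b (-0.746). Ifit3, an interferon-induced gene, had 3.2, 7.5 and 22.4 FPKM in contralateral replicates 1, 2 and 3, against 4.3, 3.9 and 4.5 FPKM in ipsilateral replicates 1, 2 and 3. The contralateral library with the most Ifit3 was the one with the least Igfbp2. Without the 2 libraries farthest from the Igfbp2 median, contralateral replicate 3 and dark-exposed replicate 4, r with Ifit3 was -0.616 and r with Fdps was 0.842. These genes were ranked by likeness alone, and the part of interferon-induced genes in the Igfbp2 difference was not tested.

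**Figure D5:**
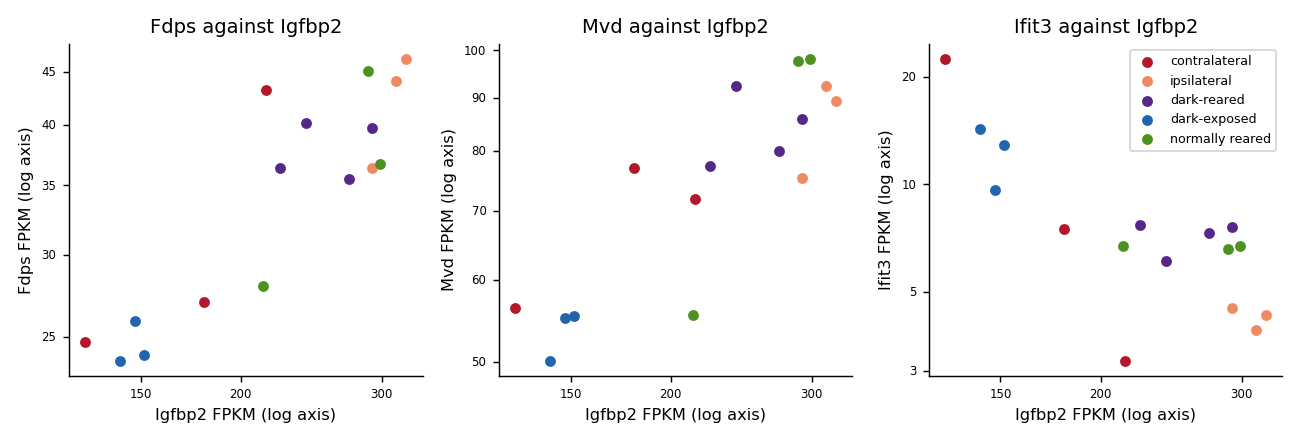
FPKM of Fdps, Mvd and Ifit3 against FPKM of Igfbp2 in the 16 pulldown libraries, both axes logarithmic and points coloured by group. Fdps and Mvd rise with Igfbp2 (r = 0.887 and 0.866) and Ifit3 falls (r = -0.783), with contralateral replicate 3 at the upper left of the Ifit3 panel.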

How the data were processed

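Libraries were grouped by the labels. Of 22 samples, 21 libraries entered the comparisons. Dark-reared replicate 2 is not analysed here, and 1 further column of per-sample values was left aside. The deposited values are FPKM made by the authors, rounded to 0.1, for 1 RefSeq transcript per gene. The submitters' processing notes list STAR 2.5.1b, HOMER 4.10 and DESeq2 for alignment and analysis software, besides CASAVA 1.8.2, FastQC 0.11.2 and R 3.4.3, with mm10 as build and no order or role for any of them. For 26 genes, symbols stored as spreadsheet dates were turned back into names. Depth was inferred from the spacing of FPKM values in 1287 genes shorter than 130 bases, which was unclear for contralateral replicate 2.

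The members and gene lists were chosen with earlier results of these data known. Tests used limma 3.58.1 in R 4.3.3 on log2(FPKM + 1), 2-sided, with the trend and robust options of eBayes. A gene was tested where it averaged more than 1 FPKM in a fit. Benjamini-Hochberg adjustment ran over every gene tested, with a threshold of 0.05. The 16 pulldowns shared a common residual spread. The plan had also included dark-reared replicate 2. Pulldown and input were fitted together over 21 libraries, with group as a covariate. Each fit was tested on simulated data. Inputs of different groups were compared by ratios of at least 1.5, among 12525 genes.

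All 9 members were described, those under the filter by their values or by a fit without it. Of the other 59 pathway genes, up to 6 that passed with the smallest p were named per comparison, or the 2 with the smallest p where fewer than 2 passed. Some genes that this rule names are not reported here. The 6 genes with the highest r to Igfbp2 and the 3 with the lowest were named, predicted genes left out. Contralateral and ipsilateral numbers were taken as pairs in the description and the replicate block, while the main fit held no term for them. The pairs were formed because same-numbered libraries deviated together (r = 0.790 to 0.903), where different numbers gave -0.741 to -0.092. Deviations from a group mean sum to 0, so the negative values follow in part from the positive ones. Alternatives were pseudocounts of 0.1 and 5, no filter or a mean above 5 FPKM, quantile and median-ratio scaling, array weights, fits of the compared groups alone, no term for the group, a replicate block and leaving out each library. Coordinates and neighbouring genes came from GENCODE on GRCm38 and promoter sequences from RefSeq.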

Additional observations from a re-analysis of the deposited data

How the results depend on the processing

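In the pulldown-to-input comparison, 3604 genes and 2 members were lower with a filter above 5 FPKM, which also left fewer of them to test. The Igf1r difference turned to 0.056 under quantile normalization. The Igf1r call was also lost without single inputs, at -0.26 to -0.36, and without a term for the group, at -0.356 (limma adjusted p = 0.117).

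For dark rearing, genes called lower numbered 2 with a pseudocount of 5, a filter above 5 FPKM, quantile normalization or median-ratio scaling, 27 with array weights and 0 to 3 when single libraries were left out. The uncalled Igfbp2 difference turned to 0.068 under median-ratio scaling, to 0.021 without dark-reared replicate 4 or normally reared replicate 2, and to 0.046 without normally reared replicate 1, its range without single libraries being -0.195 to 0.046. Igf2r turned to 0.004 with array weights.

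For dark exposure, genes called higher and lower numbered 18 and 2 with a pseudocount of 5, 70 and 3 without a filter, 0 and 0 with a filter above 5 FPKM, 185 and 73 with array weights, 1 and 0 with the compared groups alone and 0 and 0 with the replicate block. Genes called lower numbered 4 under quantile normalization and 2 under median-ratio scaling. Leaving out single libraries gave 4 to 11 higher and 0 to 1 lower. With array weights 1 member, Igfbp2, was lower. Uncalled differences changed sign for Igfbp5 (0.017) and Igfbp7 (0.028) with array weights, for Igfbp4 (-0.035) and Igfbp5 (0.044) without dark-exposed replicate 1, and for Igfbp7 without dark-exposed replicate 3 (0.052) or normally reared replicate 3 (0.080). Without single libraries the ranges were -0.035 to 0.392 for Igfbp4, -0.245 to 0.044 for Igfbp5 and -0.076 to 0.080 for Igfbp7. The cause of these changes was not tested.

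Between the hemispheres 1 gene was lower with the replicate block, and 0 to 1 when single libraries were left out, with Mir7082 called without contralateral replicate 3. The difference between the monocular and dark-rearing effects likewise had 0 to 1 genes called lower. For the ipsilateral cortex against normal rearing, 1 gene was higher with array weights. The replicate block there and for dark exposure joins libraries that share only a number (r = 0.021 to 0.574 and -0.082 to 0.218), and with it Igfbp2 differed by 0.224 and -0.752. Dark-reared and normally reared libraries share only number 1, so no block could be fitted. Omitting both monocular libraries numbered 2 was chosen after seeing the data.

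The table holds no counts, so counting error could not be separated from replicate spread, and values near 0.1 FPKM, such as Igf1 in pulldowns, are limited by rounding.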

Other observations

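Igfbp6, a binding protein outside the members that prefers IGF2, had 28.8 FPKM in contralateral and 29.1 FPKM in ipsilateral replicate 2, against 6.8 and 5.4 FPKM in contralateral and 4.1 and 2.3 FPKM in ipsilateral replicates 1 and 3. Dark-exposed replicate 1 had 27.4 FPKM, and the inputs had 24.1 to 34.9 FPKM. Both monocular libraries numbered 2 also had the highest Igfbp4 and the lowest Igfbp5 of their hemispheres, and summed neuronal markers of 729.7 and 1035 FPKM, against 286.8 and 495.0 FPKM in the other contralateral and 284.2 and 369.3 FPKM in the other ipsilateral libraries. Among the other groups, normally reared replicate 3 had a neuronal sum of 1205 FPKM with 17.1 FPKM of Igfbp6, the highest Igfbp6 of its group. Dark-exposed replicate 4 had 1177 FPKM with 15.6 FPKM, and dark-exposed replicate 1 had 891.3 FPKM with 27.4 FPKM. Dark-exposed replicate 3 had 728.7 FPKM with 8.4 FPKM. The median of Igfbp6 over all pulldowns was 7.20 FPKM, and the library with the highest neuronal sum was not the one with the most Igfbp6. The gene was chosen after its values were seen, and the part of neuronal RNA in it was not tested.

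Among the deposited values, those of 1 gene, Cyr61, whose product CCN1 has a domain of the IGF binding protein type, ran to 3 decimals, such as 9.488 FPKM, where the other genes were rounded to 0.1. They lay between 9.488 and 68.754 FPKM over the pulldowns.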
